A study of Homo sapiens with 3 samples.

Results

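The glucose and lactate transporters considered here are 10 genes: SLC2A1, SLC2A3, SLC2A14, SLC2A6, SLC2A8, SLC2A10, SLC2A12 and SLC2A13 of the facilitative sugar carrier (GLUT) family, and SLC16A1 and SLC16A3 of the monocarboxylate carrier (MCT) family. They were picked by symbol from the 60554 genes of a count table. The choice was made with their levels in these same libraries known, above all the low SLC2A3 counts in the knockdown lines. Their differences from the control are therefore given as a description of the libraries, with no test.

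RNA was sequenced from 3 stable derivatives of KYSE30, an established line of human esophageal squamous cell carcinoma. All 3 were infected with a pLKO.1-blast lentiviral construct and kept under blasticidin. In 2 lines the construct carried an shRNA against the small nucleolar RNA SNORD12B (box C/D class), with a different shRNA in each line. The third is labelled as vector, whereas the treatment description names a scrambled non-targeting shRNA, so which of the 2 constructs the control carried is not settled by the labels. Each line gave 1 library, and no line had a replicate culture.

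Glucose crosses the cell membrane down its gradient through GLUT proteins, of which GLUT1 (SLC2A1) and GLUT3 (SLC2A3) are the high-affinity carriers that many carcinomas express. Cells that ferment glucose release the lactate together with a proton through MCT proteins, mainly MCT4 (SLC16A3) for export and MCT1 (SLC16A1) for transport in either direction. The remaining GLUT proteins differ in substrate and place: several sit on membranes inside the cell, and 1 of them carries myo-inositol.

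Between 15146805 and 17336936 reads were counted per library, and mitochondrial genes took 3.94 to 4.6 percent of them. SNORD12B itself was counted 7 times in the control, against 15 times under the label shRNA 1 and 1 time under the label shRNA 2. The ratio of CPM (a gene's count scaled to equal library totals) to the control was 2.19 for the label shRNA 1, with an exact 95% counting interval of 0.84 to 6.35, and 0.128 (0.00283 to 0.992) for the label shRNA 2. The counts of the first of these libraries thus did not show less of the RNA that its label names as depleted. With so few counts of a 91-base RNA, and no library kit given, they cannot show whether the knockdown worked in either line. The libraries are called by their labels throughout. Of 14 squamous epithelial markers, 13 reached 1 CPM in every library, and KRT5, which marks basal squamous cells, was nearly absent at 1, 3 and 2 counts. Their summed level was 3222, 2064 and 3093 CPM in the control, label shRNA 1 and label shRNA 2. Markers of fibroblasts summed to 15.9, 9.51 and 13.8 CPM. Nearly all of it was COL1A1 (15.8, 9.38 and 13.3 CPM), with COL1A2, DCN, LUM and PDGFRA at 0. Those of endothelium summed to 3.68, 0.924 and 5.83 CPM, with KDR at 0. Of these, CDH5 stood at 2.58, 0.858 and 5.25 CPM and VWF at 1.1, 0.066 and 0.519 CPM. Markers of blood cells summed to 0.323, 0.66 and 0.577 CPM (HBB at 0) and those of neuroendocrine cells to 1.75, 2.25 and 1.33 CPM. Whether the lower squamous marker sum with the label shRNA 1 plays a part in the transporter values was not tested.

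SLC2A3 and SLC2A14 are near copies of each other on chromosome 12, so their sequences bear on how far their counts can be kept apart. In GENCODE 29 (hg38), the coding sequence of SLC2A3-201 has 1491 bases and that of SLC2A14-201 has 1494. Over 1491 aligned bases 1443 were identical and 48 differed, an identity of 96.8%. The first pair of sequences is the 120-base stretch within 1 exon that holds the most differences, 10 of them, printed in capitals. It lies at chr12:7930482-7930601 in exon 5 of SLC2A3-201 and at chr12:7828706-7828825 in exon 8 of SLC2A14-201, both on the minus strand.
SLC2A3: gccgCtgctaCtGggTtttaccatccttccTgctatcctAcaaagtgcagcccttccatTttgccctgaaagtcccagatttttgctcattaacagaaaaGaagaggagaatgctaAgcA
SLC2A14: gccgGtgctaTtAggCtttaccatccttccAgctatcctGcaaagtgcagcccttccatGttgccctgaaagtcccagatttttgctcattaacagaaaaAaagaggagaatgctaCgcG
A read that covers any of these differing positions can be assigned to 1 of the genes. The next sequence is the longest stretch of coding sequence that both transcripts share, 137 bases, from chr12:7922828-7922964 (exon 9 of SLC2A3-201) and chr12:7817838-7817974 (exon 12 of SLC2A14-201), minus strand. A read within it fits both genes equally.
SLC2A3 and SLC2A14: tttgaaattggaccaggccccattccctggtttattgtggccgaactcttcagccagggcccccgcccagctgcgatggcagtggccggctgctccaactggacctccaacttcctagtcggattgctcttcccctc

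The sources used here do not give the read length, so the share of ambiguous positions was computed for several lengths. Of the 50-base windows of the whole SLC2A3-201 transcript, 888 of 3866 (23%) also occurred in a transcript of SLC2A14. The share was 13% at 75 bases, 7.05% at 100 bases and 1.83% at 150 bases. Most windows of SLC2A3 thus had no copy in SLC2A14 at each of these lengths. The deposited counts used primary alignments only, per the file header, and which gene received a shared read is not stated, so the split between this pair is uncertain.

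SLC2A3, which encodes GLUT3, was far below the control in both shRNA libraries. The gene (ENSG00000059804.15) lies at chr12:7919230-7936275 on the minus strand. It had 381 counts in the control, 6 under the label shRNA 1 and 32 under the label shRNA 2. These counts correspond to 24.6, 0.396 and 1.85 CPM. The control stood well above both shRNA libraries, and the label shRNA 1 was below the label shRNA 2. The level was 62.2-fold lower than the control with the label shRNA 1 (ratio 0.0161, interval 0.00587 to 0.0353). It was 13.3-fold lower with the label shRNA 2 (ratio 0.075, interval 0.0505 to 0.108). Between the shRNA libraries the ratio of label shRNA 2 to label shRNA 1 was 4.66 (1.92 to 13.6). These intervals, like all others here, cover counting error only and say nothing of how far separate cultures would vary. In bulk RNA, fewer cells with the transcript and less of it per cell cannot be told apart.

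SLC2A14 encodes GLUT14, which arose by duplication of SLC2A3 and is known chiefly from testis. It (ENSG00000173262.11, chr12:7812512-7891148, minus strand) had 17 counts in the control, 0 under the label shRNA 1 and 1 under the label shRNA 2. The control was again the highest library, although its level was only 1.1 CPM. With the label shRNA 1 it was at least 5.55-fold lower, counting 0 as the floor of 3 counts per library and the control as measured. The exact interval of that ratio, which also takes in the counting error of the control, reached up to 0.248. With the label shRNA 2 the ratio was 0.0525 (0.00126 to 0.335). SLC2A14 made up 17 of the 398 counts of the pair in the control, or 4.27% with an exact Clopper-Pearson interval of 2.51 to 6.75%. The share was 0 of 6 counts with the label shRNA 1 (0 to 45.9%) and 1 of 33, or 3.03%, with the label shRNA 2 (0.0767 to 15.8%). The pair followed SLC2A3 when summed, at 25.7, 0.396 and 1.9 CPM, a sum that any split of shared reads between the pair leaves as it is.

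The pseudogenes of SLC2A3 took almost no reads. SLC2A3P1 was at 0 in all libraries, SLC2A3P2 had 2 counts in the control only, and SLC2A3P4 had 3, 2 and 5 counts. At 50 bases SLC2A3P2 held 0.698% and SLC2A3P4 held 0.828% of the windows of SLC2A3-201, and SLC2A3P1 held none. At 75, 100 and 150 bases none of the 3 shared a window with it.

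**Figure D1:**
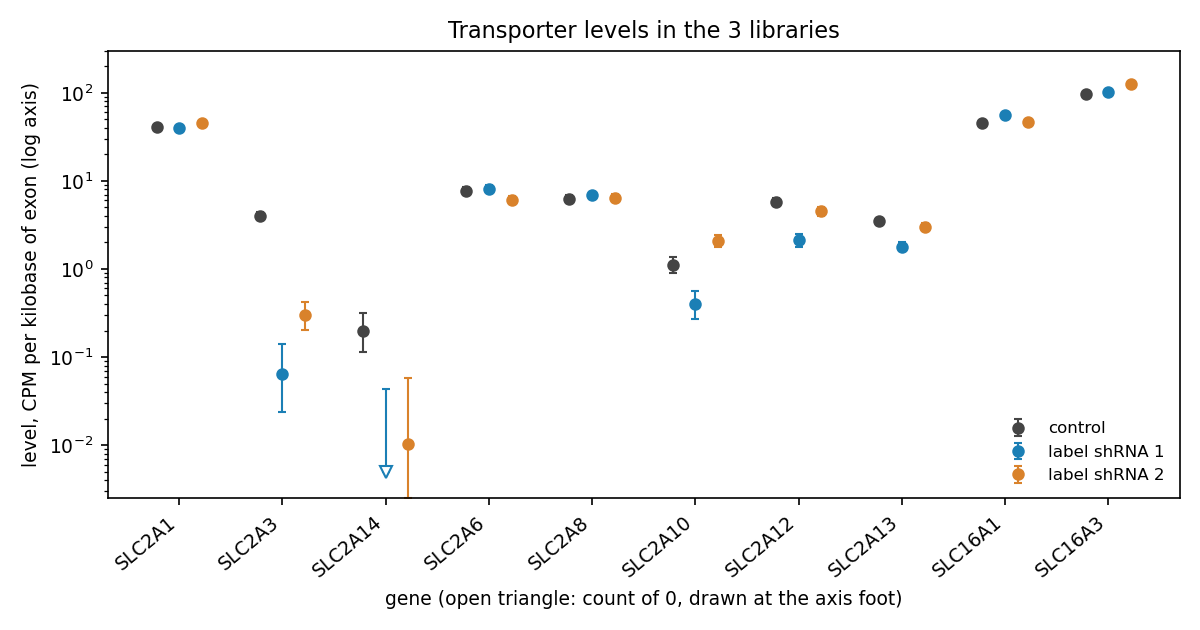
Level of each transporter in the 3 libraries, in CPM per kilobase of exon on a log axis, with exact 95% Poisson intervals that cover counting error only. SLC16A3, SLC16A1 and SLC2A1 lie highest in every library, SLC2A3 lies at 3.998 in the control and at 0.0643 and 0.3 with the labels shRNA 1 and shRNA 2, and the open triangle is the SLC2A14 count of 0.

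SLC2A1 encodes GLUT1, the main glucose carrier of epithelial tumour lines, and lay close to the control in both shRNA libraries. The gene (ENSG00000117394.19, chr1:42925375-42959173, minus strand) stood at 199 CPM in the control, 197.7 under the label shRNA 1 and 222.3 under the label shRNA 2. The ratio to the control was 0.993 (0.944 to 1.04) with the label shRNA 1 and 1.12 (1.06 to 1.17) with the label shRNA 2. The counting interval thus held 1 in the first comparison and lay above it in the second.

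Corrected for exon length, SLC2A1 exceeded every other GLUT gene in every library. That length takes in all exonic bases of a gene rather than those of a single transcript, so shares and order between genes depend on it. It stood at 40.4, 40.1 and 45.1 CPM per kilobase in the control, label shRNA 1 and label shRNA 2, against 3.998, 0.0643 and 0.3 for SLC2A3. Summed over the 14 GLUT genes, the level was 69.3 CPM per kilobase in the control, 60.1 under the label shRNA 1 and 68 under the label shRNA 2. The sum with the label shRNA 1 was 0.867 of that in the control, and the sum with the label shRNA 2 was 0.981 of it. SLC2A1 made up 58.3% of this sum in the control and 66.8% and 66.3% in the shRNA libraries. SLC2A3 made up 5.77% in the control and 0.107% and 0.44% with the labels shRNA 1 and shRNA 2. SLC2A3 was thus a small part of the summed GLUT transcript level in every library, the control included.

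**Figure D2:**
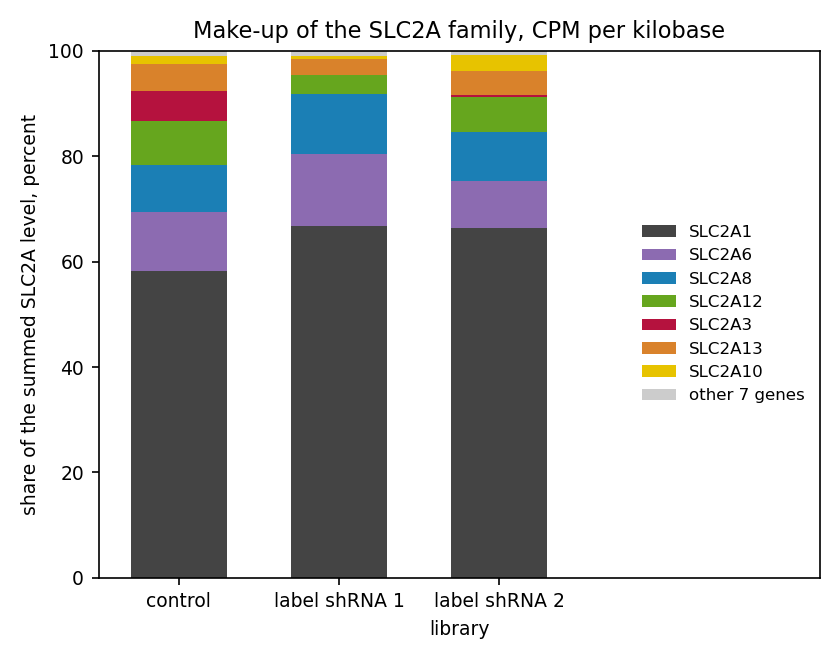
Share of each gene in the summed level of the 14 GLUT genes, in percent of CPM per kilobase, 1 bar per library. SLC2A1 takes 58.3% in the control, 66.8% under the label shRNA 1 and 66.3% under the label shRNA 2, and the SLC2A3 segment is 5.77%, 0.107% and 0.44%.

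GLUT6 and GLUT8, encoded by SLC2A6 and SLC2A8, are carriers held mostly on internal membranes, GLUT6 on lysosomes. SLC2A6 (ENSG00000160326.13, chr9:133471095-133479137, minus strand) stood at 27.1, 28.9 and 21.5 CPM in the control, label shRNA 1 and label shRNA 2. The library labelled shRNA 2 was the lowest, with a ratio to the control of 0.79 (0.686 to 0.911), and that of the label shRNA 1 was 1.06 (0.93 to 1.22). SLC2A8 (ENSG00000136856.17, chr9:127397138-127408424, plus strand) stood at 24.3, 26.9 and 25.1 CPM. It was the only member whose counting interval held 1 in all 3 comparisons between libraries.

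SLC2A10 encodes GLUT10, a carrier of internal membranes whose loss causes arterial tortuosity syndrome. The gene (ENSG00000197496.5, chr20:46709487-46736347, plus strand) had 86 counts in the control, 30 under the label shRNA 1 and 180 under the label shRNA 2. The libraries lay on opposite sides of the control: 1.98 CPM with the label shRNA 1 and 10.4 with the label shRNA 2, against 5.56 in the control. The ratio to the control was 0.356 (0.227 to 0.546) with the label shRNA 1 and 1.87 (1.44 to 2.44) with the label shRNA 2. From label shRNA 1 to label shRNA 2 the level was 5.24 times as high (3.55 to 8), the largest such ratio among members with a count in each library. A window of 500 kb between start sites, chosen after the values were seen, held 5 other genes that passed the filter on low counts. They had median log2 ratios of -0.28 and -0.02. Their log2 ratios ran from -0.77 to 0.39 with the label shRNA 1 and from -0.60 to 0.18 with the label shRNA 2, against -1.43 and 0.89 for SLC2A10.

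SLC2A12 encodes GLUT12, an insulin-responsive carrier. The gene (ENSG00000146411.5, chr6:133988697-134052636, minus strand) stood at 25.9 CPM in the control, 9.51 under the label shRNA 1 and 20.1 under the label shRNA 2. Both shRNA libraries were below the control, the label shRNA 1 by more: the ratios were 0.367 (0.301 to 0.445) and 0.775 (0.669 to 0.896). Of its exonic bases, 38.9% lie opposite TBPL1, a gene on the other strand with 456, 442 and 417 counts. Reads were counted with strand option 1 per the file header, and the sources used here do not give the library kit, so the SLC2A12 values are uncertain to that extent.

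SLC2A13 encodes HMIT, which carries myo-inositol with a proton. The gene (ENSG00000151229.12, chr12:39755021-40106089, minus strand) stood at 34.7, 17.9 and 30.3 CPM in the control, label shRNA 1 and label shRNA 2. The order of the libraries was that of SLC2A12, with the label shRNA 1 lowest. The ratios to the control were 0.516 (0.444 to 0.598) with the label shRNA 1 and 0.874 (0.774 to 0.988) with the label shRNA 2.

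The lactate carriers had the highest levels of the members per length. SLC16A3, which encodes MCT4 (ENSG00000141526.14, chr17:82228397-82261129, plus strand), stood at 867.6 CPM in the control, 912.8 under the label shRNA 1 and 1127 under the label shRNA 2. Both shRNA libraries were above the control, by ratios of 1.05 (1.03 to 1.08) and 1.3 (1.27 to 1.33). SLC16A1, which encodes MCT1 (ENSG00000155380.11, chr1:112911847-112957013, minus strand), stood at 242.6, 293.9 and 248.9 CPM. Here the label shRNA 1 was the highest, with a ratio to the control of 1.21 (1.16 to 1.27), and that of the label shRNA 2 was 1.03 (0.982 to 1.07). Each lactate carrier was thus furthest above the control in a different line. Of the exonic bases of SLC16A3, 5.36% lie opposite CSNK1D, a gene with 7992, 7682 and 10609 counts. Of those of SLC16A1, 3.29% lie opposite SLC16A1-AS1, which had 327, 270 and 262 counts. Because the library kit is not given, the values of both carriers are uncertain to that extent.

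The summed level of the proton-linked MCT genes SLC16A1, SLC16A3, SLC16A7 and SLC16A8 was 142.9, 158.4 and 173.4 CPM per kilobase in the control, label shRNA 1 and label shRNA 2. It was 1.11 and 1.21 times the control in the shRNA libraries. SLC16A3 made up 67.5%, 64.1% and 72.3% of it and SLC16A1 made up 32%, 34.9% and 27%. SLC16A8, which encodes MCT3 of the retinal pigment epithelium, had 26, 53 and 48 counts, and SLC16A7, which encodes MCT2, had 0, 0 and 1.

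The order of the members in CPM per kilobase was the same at the top in all libraries. SLC16A3 came first at 96.5, 101.5 and 125.3 in the control, label shRNA 1 and label shRNA 2, followed by SLC16A1 at 45.7, 55.3 and 46.9 and SLC2A1. With the label shRNA 2 the ratio of SLC16A1 to SLC2A1 per kilobase was 1.04, with a counting interval of 0.994 to 1.08. In the control there followed SLC2A6 at 7.67, SLC2A8 at 6.19, SLC2A12 at 5.8, SLC2A3 at 3.998, SLC2A13 at 3.46, SLC2A10 at 1.11 and SLC2A14 at 0.197 CPM per kilobase. In that library the interval of the ratio held 1 for SLC2A8 to SLC2A12 (1.07, 0.924 to 1.23) and for no other neighbours, with SLC2A3 to SLC2A13 close to that limit (1.16, 1.01 to 1.32). SLC2A3 moved from the seventh place in the control to the ninth in both shRNA libraries, below SLC2A10 at 0.396 and 2.08 CPM per kilobase. The interval also held 1 for SLC2A12 to SLC2A13 with the label shRNA 1 (1.19, 0.967 to 1.46) and for SLC2A8 to SLC2A6 with the label shRNA 2 (1.05, 0.916 to 1.21).

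**Figure D3:**
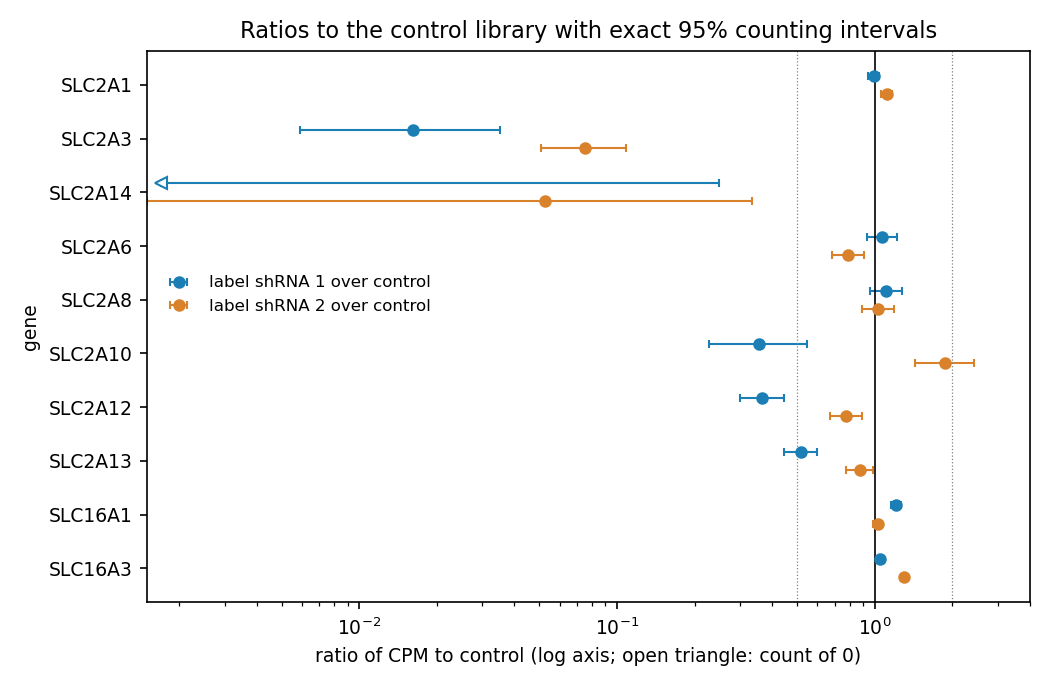
Ratio of CPM in each shRNA library to the control for the 10 transporters, on a log axis, with exact 95% conditional counting intervals and dotted lines at 2-fold. SLC2A3 lies at 0.0161 and 0.075, SLC2A10 lies on opposite sides of 1 at 0.356 and 1.87, and the open triangle is the SLC2A14 count of 0 with its upper limit of 0.248.

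Counted by direction, 4 of the 10 members lay below the control with both shRNAs (SLC2A3, SLC2A14, SLC2A12 and SLC2A13), 3 were above it in both (SLC2A8, SLC16A1 and SLC16A3) and 3 lay on opposite sides. Over all 17801 genes that passed the filter on low counts, as all 10 members did, 25.5 percent were below the control in both and 29.6 percent above it in both. The pair of ratios shares the control library, so a library-specific value of the control moves both. Of the members, 2 were at least 2-fold below the control in both libraries, SLC2A3 and SLC2A14, and 0 were at least 2-fold above it. Among the 18048 genes with at least 10 counts in 1 library, 278 (1.54 percent) were 2-fold lower in both and 329 (1.82 percent) 2-fold higher. Because SLC2A3 was a reason for choosing the members, nothing is read from this count.

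The shRNA libraries also differed from each other. With the label shRNA 1, 4 members were at least 2-fold below the control, SLC2A3, SLC2A14, SLC2A10 and SLC2A12, where the background was 6.43 percent of the 18048 genes. With the label shRNA 2 they were 2, SLC2A3 and SLC2A14, with a background of 4.22 percent. No member reached 2-fold above the control with either label, where 4.9 and 4.44 percent of the genes did with the labels shRNA 1 and shRNA 2. SLC2A3, SLC2A10 and SLC2A12 were at least 2-fold higher with the label shRNA 2 than with the label shRNA 1, a size that 7.98 percent of the genes reached in that direction, and SLC2A14 had 1 count against 0. No member was 2-fold lower in that direction, against 6.46 percent of genes. By counting intervals alone, 5 members lay below the control with the label shRNA 1 and 2 above, beside 22.9 and 26.8 percent of the genes that passed the filter. With the label shRNA 2 they were 5 below and 3 above, beside 22.8 and 24.5 percent. From label shRNA 1 to label shRNA 2, 6 members were higher and 2 lower, beside 28 and 28.5 percent.

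**Figure D4:**
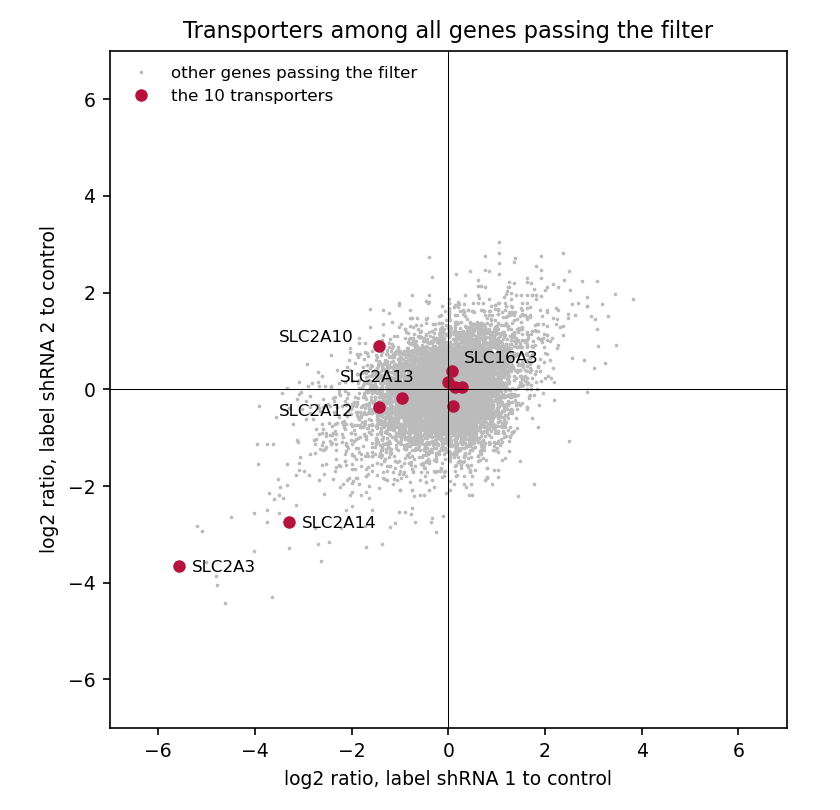
Log2 ratio to the control with the label shRNA 1 (horizontal axis) and with the label shRNA 2 (vertical axis) for the 17801 genes that passed the filter (grey) and the 10 transporters (red), from log-CPM with a prior count of 2. SLC2A3 lies at -5.57 and -3.65 and SLC2A14 at -3.29 and -2.74, while the other 8 lie between -1.43 and 0.28 and between -0.37 and 0.89.

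Across all genes the comparison of the pair of shRNA lines with the control had 1 residual degree of freedom. The edgeR quasi-likelihood test called 0 genes higher and 0 lower (0 percent) at an adjusted p of 0.05, with 73 higher (0.41 percent) and 164 lower (0.921 percent) at an unadjusted p of 0.05. DESeq2 called 1 higher and 14 lower (0.00562 and 0.0786 percent). The likelihood ratio test of edgeR called 2 higher and 36 lower (0.0112 and 0.202 percent), and without a filter the quasi-likelihood test called 4 higher and 37 lower of 29390 genes (0.0136 and 0.126 percent). These fits take their spread from how far the shRNA lines lie apart and apply it to the single control as well.

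The genes whose log2 ratios were most like those of SLC2A3 were MARK1, VIT, SESN3, TCIM and KLHL13. They had the smallest distances in the plane of both log2 ratios among 11367 genes with at least 5 CPM in the control, at 0.57, 0.88, 0.88, 1.21 and 1.48. MARK1, a kinase of microtubule-associated proteins, had 159, 3 and 13 counts in the control, label shRNA 1 and label shRNA 2. SESN3, a stress-induced sestrin, had 193, 5 and 11. This likeness rests on 3 libraries that share 1 control and is a description only.

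Of the genes near SLC2A3 that passed the filter, only SLC2A14 shared its low levels in both shRNA libraries. The start site of SLC2A14 lies 45.1 kb downstream of that of SLC2A3. Within 500 kb no other gene that passed the filter lay downstream. The 6 genes in this window, SLC2A14 included, had median log2 ratios of -0.07 and 0.11. The window was again chosen after the values were seen, and distances are between start sites. FOXJ2, a forkhead transcription factor 96.4 kb upstream, had 683, 529 and 614 counts. NECAP1, an endocytosis adaptor protein, had 642, 615 and 677. The other upstream genes had only 7 to 20 counts in each library.

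Of the 6 other GLUT genes only SLC2A11 passed the filter on low counts. It stood at 3.94, 5.22 and 4.61 CPM in the control, label shRNA 1 and label shRNA 2, and SLC2A9, a urate carrier, had 8, 2 and 5 counts. SLC2A2, SLC2A4, SLC2A5 and SLC2A7 were at 0 in all libraries, which allows up to 0.194, 0.198 and 0.173 CPM (3 counts). SLC2A4 encodes GLUT4, the insulin-regulated carrier of muscle and fat. Of 7 sodium-coupled carriers, 3 passed the filter and 0 were called in either direction. SLC5A2, known as the renal glucose carrier SGLT2, stood at 39.6, 37.2 and 48.1 CPM. SLC5A10 stood at 29.4, 29.2 and 30.2 CPM. SLC5A12, a lactate carrier, stood at 2.71, 0.528 and 1.61 CPM. Overlap with genes on the other strand was computed for the members only, and the library kit is not given. How far the values of these sodium-coupled carriers belong to the genes themselves was therefore not tested.

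Of the 12 other SLC16 genes, 9 passed the filter and 0 were called by the edgeR test, with median log2 ratios of 0.03 and -0.29. Of the 9, 3 lay below and 2 above the control with both shRNAs, beside 25.5 and 29.6 percent of all genes tested. SLC16A5 stood at 25.6, 21.1 and 22.5 CPM in the control, label shRNA 1 and label shRNA 2, SLC16A13 at 11.6, 8.12 and 16.4 and SLC16A14 at 9.5, 10.7 and 7.15. At an unadjusted p of 0.05, SLC16A9 and SLC16A10 were lower, and are named for that after their values were seen. SLC16A10, a carrier of aromatic amino acids, had 25, 2 and 2 counts, and SLC16A9 had 45, 8 and 5. The edgeR likelihood ratio test called SLC16A10, which the quasi-likelihood test and DESeq2 did not.

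Partner proteins that bring the carriers to the cell surface, or take them away from it, had medians near those of all genes. Of 13 such genes 13 passed the filter and 0 were called. With both shRNAs 4 of them lay below and 2 above the control, beside 25.5 and 29.6 percent of all genes tested. Their median log2 ratios were -0.01 and -0.02 with the labels shRNA 1 and shRNA 2, beside 0.03 and 0.01 for all genes tested. BSG, which encodes basigin, the chaperone of MCT1 and MCT4, stood at 469, 430.7 and 447.1 CPM. GIPC1, which binds the tail of GLUT1, stood at 285.6, 256.9 and 336.7 CPM. RAB10, a small GTPase that moves GLUT4 vesicles, stood at 177.5, 175.7 and 222.2 CPM. Outside the rule for named genes, TXNIP, an arrestin-like protein that drives GLUT1 from the surface, was picked after its values were seen. It stood at 182, 90.2 and 228.2 CPM, below the control with the label shRNA 1 and above it with the label shRNA 2. Of the same list and picked in the same way, EMB lay above the control with both labels, at 11.8, 23.6 and 19.8 CPM. ARRDC4 lay below it with both, at 8.01, 5.02 and 5.65 CPM.

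Of 26 glycolytic enzyme genes 20 passed the filter and 0 were called. With both shRNAs 11 of the 20 lay below the control, beside 25.5 percent of all genes tested. Above it with both lay 1, beside 29.6 percent, and 8 lay on opposite sides. The median log2 ratios of the 20 were -0.09 with the label shRNA 1 and -0.37 with the label shRNA 2. Those of all genes tested were 0.03 and 0.01. GAPDH stood at 4781, 4176 and 4187 CPM in the control, label shRNA 1 and label shRNA 2. ENO1, the main enolase, stood at 2551, 2426 and 2074 CPM. PKM, which encodes pyruvate kinase, stood at 1594, 1699 and 1553 CPM.

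Of 17 genes that handle lactate and pyruvate 15 passed the filter and 0 were called. Below the control with both shRNAs lay 5, and above it 1, beside 25.5 and 29.6 percent of all genes tested. The median log2 ratios of the 15 were -0.05 and -0.24 with the labels shRNA 1 and shRNA 2. LDHA, the lactate dehydrogenase subunit that favours lactate formation, stood at 1566, 1676 and 1198 CPM. LDHB, the subunit that favours its oxidation, stood at 597.9, 570.2 and 328.5 CPM, lowest with the label shRNA 2. PDP1, which activates pyruvate dehydrogenase, stood at 293.3, 178.5 and 224.4 CPM.

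Of 18 transcription factors known to act on transporter genes 17 passed the filter and 0 were called. Below the control with both shRNAs lay 6, and above it 4, beside 25.5 and 29.6 percent of all genes tested. The median log2 ratios of the 17 were -0.06 and -0.04. EPAS1, the hypoxia-inducible factor HIF2-alpha, stood at 209.5, 159.6 and 209.7 CPM, YAP1 at 145, 139.2 and 159.5 and SP1 at 141.2, 113.2 and 172.9. SOX2, a factor of basal squamous cells and the 1 gene of the list at an unadjusted p of 0.05, stood at 103.3, 12.2 and 39 CPM. It was named after its values were seen, and the quasi-likelihood test called it only when no filter on low counts was applied.

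**Figure D5:**
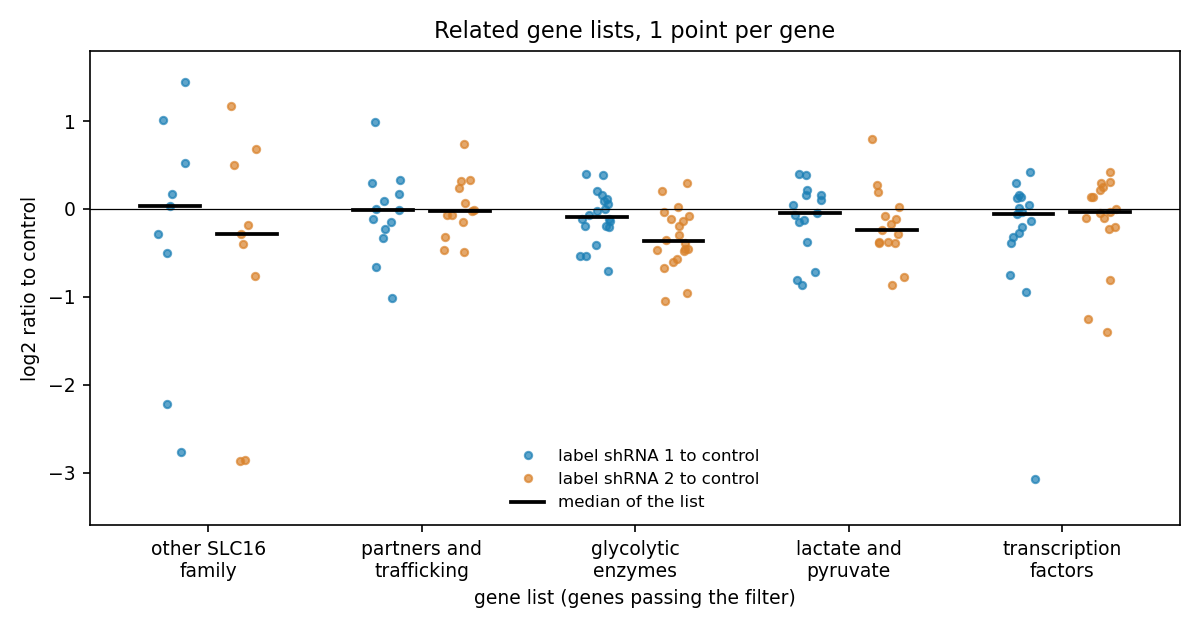
Log2 ratio to the control of each gene that passed the filter in 5 related lists, with the label shRNA 1 in blue and the label shRNA 2 in orange, and black bars at the list medians. The medians lie between -0.09 and 0.03 for the label shRNA 1 and between -0.37 and -0.02 for the label shRNA 2, and the lowest transcription factor is SOX2 at -3.07 with the label shRNA 1.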

How the data were processed

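The authors deposited 1 table of raw counts per gene, made with featureCounts 1.6.4 on an hg38 annotation with strand option 1 and primary alignments only, per the file headers. Exonic length in bases is a further column of the same deposited file. Per the submitters' processing notes the tools were TopHat2 and HTSeq with hg19, which differs from the headers. All 52179 gene identifiers shared with GENCODE 29 in the same version had the same start and end there. Of the 60554 identifiers 56558 matched a gene name table.

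The members and the gene lists were chosen with earlier results of these data known. CPM was computed on the total count, and level per length as CPM per kilobase of exon, over all exonic bases of a gene. Counts have exact Poisson intervals and ratios exact conditional binomial ones, at 95%, and a count of 0 is taken as up to 3 counts. Log2 ratios use a prior count of 2.

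All genes passing filterByExpr (17801) were fitted with edgeR 4.0.16 in R 4.3.3 (TMM, quasi-likelihood test, two-sided, Benjamini-Hochberg at 0.05, common biological coefficient of variation 26.7%), with the 2 shRNA lines against the control. DESeq2 1.42.0, the likelihood ratio test, RLE scaling, no filter, other prior counts and leaving out each shRNA library were alternatives. Levels and overlaps were computed in Python 3.11.15 with pandas 2.3.3 and scipy 1.17.1, and SLC2A3 and SLC2A14 were aligned with Biopython 1.88.

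The rule for named genes was: all members, the SLC2A3 pseudogenes, SNORD12B, the 3 genes of each list with the highest mean CPM, the 5 officially named genes nearest to SLC2A3 in both log2 ratios among those with 5 CPM or more in the control, and any list gene called by edgeR.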

Additional observations from a re-analysis of the deposited data

How the results depend on the processing

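The SLC2A3 mean log2 ratio of -4.61 lay between -4.78 and -4.33 over the other scalings and prior counts, at -4.65 when summed with SLC2A14 (added after the data were seen), and between -5.57 and -3.65 when a shRNA library was left out. Members other than SLC2A3 and SLC2A14 moved by at most 0.02 over those scalings and prior counts, and SLC2A14 moved from -3.02 to -4.42 and -2.05 with prior counts of 0.5 and 5. Members at least 2-fold lower numbered 2 to 4 with single shRNA libraries. Genes called higher numbered 0 with edgeR's quasi-likelihood test, 1 with DESeq2, 2 with the likelihood ratio test and 4 with no filter, and genes called lower 0, 14, 36 and 37. The cause of these differences was not tested. Genes at least 2-fold higher in both shRNA libraries numbered 329, and 132 and 1715 with a minimum of 20 counts and 1 count. Those 2-fold lower numbered 278, and 147 and 2471. With single libraries they were 802 to 884 higher and 762 to 1161 lower, where only 1 library had to pass. The mean of both medians went from -0.02 to -0.03 for the partner genes with TMM and RLE, and for the transcription factors from -0.05 to -0.06 with either scaling and -0.03 with at least 5 CPM. Glycolytic genes below the control numbered 11 in both libraries and 13 to 17 with single ones. Leaving out a library leaves 1 against 1 with no residual degrees of freedom, so the edgeR test has no value there. No paired analysis was possible because the control gave 1 library and the labels name no pairs of samples.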
